A study of Homo sapiens with 2 samples.

Results

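Binding sites of the transcription factor IRF1 were examined at 5 antiviral TRIM genes, TRIM5, TRIM21, TRIM22, TRIM25 and TRIM69, in NB4 cells exposed to all-trans retinoic acid (ATRA) for 4 hours. NB4 is an established human line of acute promyelocytic leukemia that carries the PML-RARA fusion, and ATRA is the drug that makes such cells mature. Chromatin immunoprecipitation sequencing (ChIP-seq) was done on 1 ATRA library and on 1 control library of NB4 cells given the solvent DMSO for the same time. One list was analysed, which held 1986 summits (single-base peak positions on hg38) and carries the name of the ATRA library. The control library's values were not used here, so nothing is said of a gain or loss of IRF1 under ATRA, and with 1 library there is no spread between replicates. Cell identity could not be checked against marker genes, since the list holds no expression values. Members were taken by gene name, together with any summit within 10 kb of their spans that was assigned to a neighbour. This gave 5 genes of 19974 protein-coding genes, and 5 summits of 1986. The other 72 TRIM genes served for comparison.

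TRIM proteins are a large family, most of them ubiquitin ligases with a RING domain, B-boxes and a coiled coil, and these 5 members also carry a PRY-SPRY domain, with which several of them recognise viral or host proteins. TRIM5 binds the capsid of incoming retroviruses, and TRIM22 restricts several viruses, in part by repressing viral transcription. TRIM21 is a cytosolic antibody receptor that directs antibody-coated virus to the proteasome. TRIM25 ubiquitinates the RNA sensor RIG-I and also conjugates ISG15, and TRIM69 restricts vesicular stomatitis virus. Interferon raises the expression of many of these genes through promoter elements built of GAAA repeats, which IRF and STAT factors bind.

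IRF1 summits were found at the start sites of TRIM21 and TRIM25, while TRIM5, TRIM22 and TRIM69 had none there. The sites are shown first, because the members differ in their GAAA letters and in how far these lie from a summit. Each line below holds 30 bases of the gene's own strand, 5′ to 3′, taken from the RefSeq promoter table of GRCh38.p14, which covers 250 bases before and 50 bases from each start site. Capitals mark 2 copies of GAAA separated by any 2 bases, on either strand (on the reverse strand they read TTTC), with overlapping copies joined. The TRIM25 promoter had no such pair, and its capitals mark the shorter IRF core AANNGAAA, on the reverse strand, a motif chosen after the pair had been seen to be missing. The windows lie at chr11:4393663-4393692 and chr17:56914034-56914063 for TRIM21 and TRIM25, which had a summit at their start. Those of TRIM5 and TRIM69, which had none there, lie at chr11:5685082-5685111 and chr15:44736456-44736485. The promoter table does not hold TRIM22, so its promoter was not searched.

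TRIM21: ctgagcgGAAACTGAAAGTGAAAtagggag
TRIM25: ctcgagctaggTTTCGTTTcctcggcggcc
TRIM5: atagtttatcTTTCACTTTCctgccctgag
TRIM69: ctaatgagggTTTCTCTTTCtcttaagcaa

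TRIM21 carried the longest run, 3 copies of GAAA in a row with 2 bases between them, from position 18 to 33 counted from the RefSeq start. The summit lay inside this run, at chromosome 11 position 4393678, which is base 15 of the line shown. In TRIM25 the summit, at chromosome 17 position 56914056, lay 4 bp before the capitals, which span the start site from position -3 to 5. TRIM5 and TRIM69 held a GAAA pair at -27 to -18 and at -62 to -53, and neither promoter held a summit.

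Among the 4 members with a promoter in the table, 3 held the GAAA pair (TRIM5, TRIM21 and TRIM69), against 3.57% of all 35116 promoters and 7 of 78 promoters of the other TRIM genes (8.97%). The tripled form was found in TRIM21 alone of the 4, and in 0.154% of all promoters. The shorter core AANNGAAA is contained in the GAAA pair, so the 3 promoters with the pair hold it by construction. It was chosen after TRIM25 was seen to lack the pair, so its presence in all 4 is no separate result. It stood in 22.8% of all promoters and in 65.2% of the 302 promoters with a summit. Most promoters with a GAAA pair held no summit: 117 of the 1255 promoters that hold one also held a summit (9.32%), against 302 of all 35116 promoters (0.860%), so TRIM5 and TRIM69 belong with the 1138 that had the letters and no summit.

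The full stretches of 250 bases before the start show how differently the members' promoters are built. Those of TRIM5 (chr11:5685075-5685324) and TRIM69 (chr15:44736278-44736527) are printed because they hold the pair without a summit, and that of TRIM25 (chr17:56914050-56914299) because it has a summit without the pair. Over the whole 300 bases the GC content was 72.3% in TRIM25, 55.7% in TRIM21, 48.3% in TRIM5 and 42.0% in TRIM69. The capitals at the end of the TRIM25 line are the part of its core motif that precedes the start site.

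TRIM25: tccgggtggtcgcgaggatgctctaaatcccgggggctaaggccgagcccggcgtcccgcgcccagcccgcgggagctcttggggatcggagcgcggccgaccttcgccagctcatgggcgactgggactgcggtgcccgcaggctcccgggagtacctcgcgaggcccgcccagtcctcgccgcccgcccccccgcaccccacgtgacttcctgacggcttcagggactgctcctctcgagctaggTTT
TRIM5: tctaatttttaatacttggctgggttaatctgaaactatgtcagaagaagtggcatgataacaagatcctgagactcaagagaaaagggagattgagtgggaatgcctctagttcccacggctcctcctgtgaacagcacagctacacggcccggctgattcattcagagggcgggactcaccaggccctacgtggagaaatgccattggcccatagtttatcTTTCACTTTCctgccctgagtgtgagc
TRIM69: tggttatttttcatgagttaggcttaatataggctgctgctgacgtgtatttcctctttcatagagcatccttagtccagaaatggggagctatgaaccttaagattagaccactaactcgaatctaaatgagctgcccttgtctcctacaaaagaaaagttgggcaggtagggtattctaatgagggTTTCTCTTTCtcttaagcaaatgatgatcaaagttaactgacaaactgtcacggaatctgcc

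TRIM21 (chromosome 11, 4384897 to 4393702) had the highest score of the 5 genes. The score is the authors' own, its scale is not stated, and it was used only to rank summits within this list. Its single summit scored 90.0, ranked 204 of 1986 and exceeded 89.7% of all summits and 84.4% of the 539 summits within 1 kb of a transcription start site (TSS). It lay 18 bp downstream of the TSS of the authors' annotation and at position 25 from the RefSeq start, in the class promoter-TSS. No other summit lay within 10 kb of the gene, and the next one was 99.5 kb away.

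TRIM25 (chromosome 17, 56887909 to 56914049) had a summit of middling rank. It scored 27.0, ranked 914 and exceeded 53.8% of all summits and 48.2% of those within 1 kb of a TSS. The summit lay 8 bp upstream of the authors' TSS, also in the class promoter-TSS. No further summit lay within 100 kb of TRIM25. Both members with a summit at the start thus had it within 20 bp of the authors' TSS, and their scores of 90.0 and 27.0 bracket 28.8, the median best score over the 672 protein-coding genes with a summit within 10 kb of their TSS.

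TRIM5 (chromosome 11, 5588635 to 5685074) was the nearest gene of no summit. One summit, at position 5624898, lay inside its RefSeq span, 60.2 kb from the TRIM5 start site. The authors assigned it to TRIM34, a paralog that also acts on retroviral capsids, at -79 bp from the TRIM34 TSS. TRIM34 lies inside the TRIM5 span and is read from the opposite strand, as are TRIM6 and the TRIM6-TRIM34 readthrough gene. The summit scored 30.7, ranked 793 and exceeded 60.1% of all summits.

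TRIM22 (chromosome 11, 5689790 to 5710863) had no summit within 10 kb of its span, the only member of which this held. The closest was again the TRIM34 summit, 64.9 kb away, although the spans of TRIM22 and TRIM5 are separated by only 4.72 kb. TRIM5, TRIM6, TRIM22 and TRIM34 are paralogs, and the handling of reads that fit several of them is not given in the sources used here. Since the background and threshold of the peak calling are not given either, a gene without a summit cannot be called unbound.

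TRIM69 (chromosome 15, 44736528 to 44767827) had no summit at its start but a pair of them outside the gene. One was assigned to TRIM69 at 48268 bp from the authors' TSS, at position 44784630. It lay 16.8 kb beyond the gene's end in an LTR13 repeat, an endogenous retroviral element, and scored 28.4, rank 851. The other, at position 44728793, lay 7.74 kb before the gene and was assigned to the pseudogene RNF4BP, 195 bp upstream of its TSS. It scored 19.0 and exceeded 31.2% of all summits, the lowest of the 5 summits. Farther upstream were the B2M summits. B2M encodes the light chain of MHC class I. Its summits scored 101 in the first intron and 49.8 at the promoter, and lay 23.8 and 25.1 kb from the TRIM69 span. The summits just inside and just outside the 10 kb limit were therefore those at 7.74 and 16.8 kb, both at TRIM69.

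**Figure D1:**
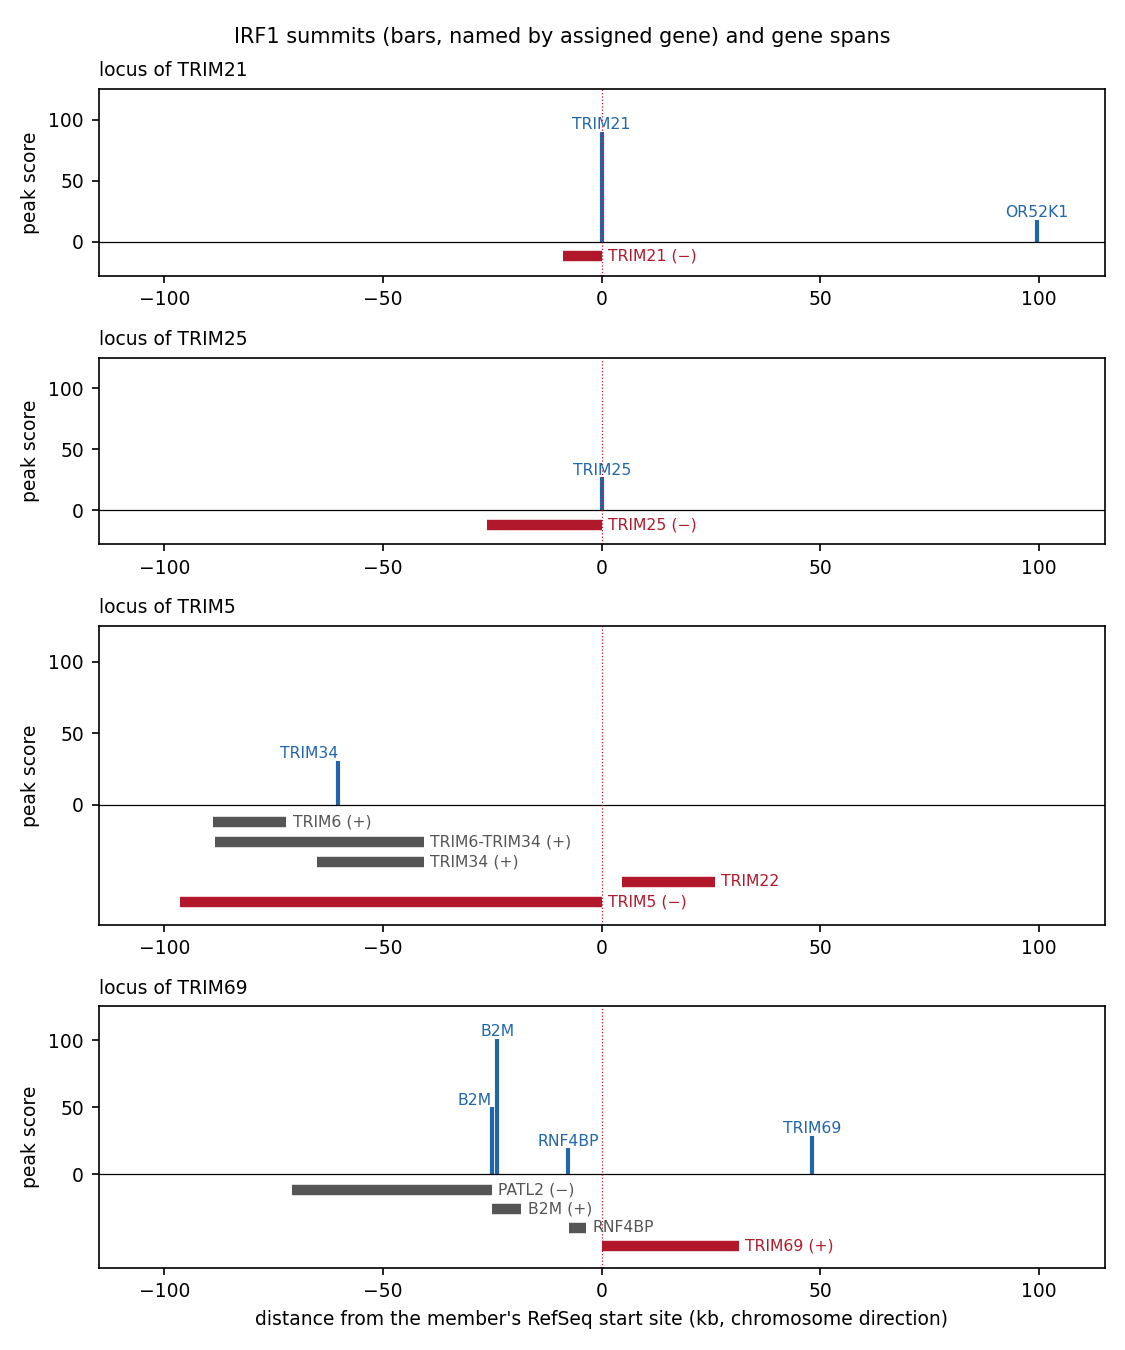
Peak score of each IRF1 summit (blue bars, vertical axis, authors' unit) against its distance from the member's RefSeq start site in kb (horizontal axis), with gene spans drawn below in red for members and grey for neighbours, and signs for the strand where the promoter table gives it. TRIM21 and TRIM25 have a bar at the start site (90.0 and 27.0), whereas the bar inside the TRIM5 span stands at TRIM34 (30.7) and those beside TRIM69 lie outside the gene (19.0 and 28.4).

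Ordered by their assigned summits at any distance, the members thus ran TRIM21 (90.0), TRIM69 (28.4) and TRIM25 (27.0). TRIM5 and TRIM22 had no assigned summit and are unranked. The order mixes unlike sites, since the TRIM69 summit lay 16.8 kb beyond the gene's end and those of TRIM21 and TRIM25 at the start site. The TRIM69 summit also lay in an LTR13 repeat, and the handling of reads that fit several places is not given. TRIM21 stood well above the other members, and TRIM69 and TRIM25 lay 63 ranks apart in the middle of the list. The median over all 1986 summits was 25.2, with a range of 8.28 to 321. With 1 library, no error can be given for these differences.

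**Figure D2:**
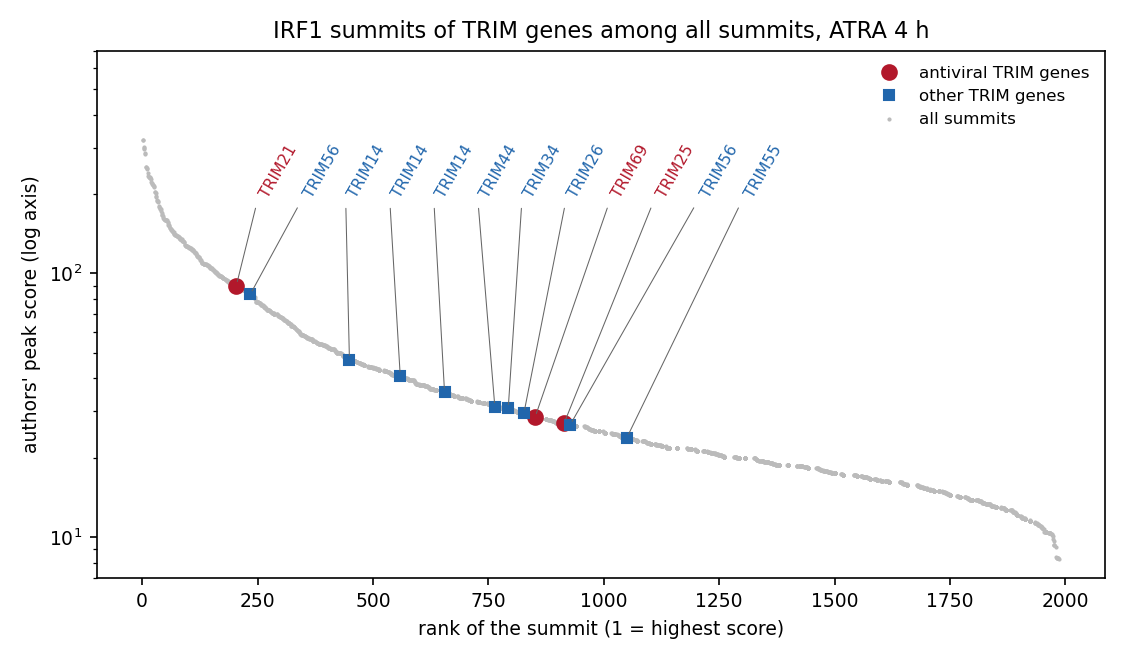
Authors' peak score (vertical log axis) of all 1986 summits against rank (horizontal axis, 1 is the highest), with the summits assigned to antiviral TRIM genes in red and to other TRIM genes in blue. TRIM21, at rank 204, and the higher TRIM56 summit, at rank 234, stand apart from the other TRIM summits, which lie between ranks 449 and 1050.

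By gene counts, 2 of 5 antiviral TRIM genes (40.0%) had a summit assigned to them within 10 kb of the TSS, against 5 of 72 other TRIM genes (6.94%) and 3.36% of all protein-coding genes. By span, 4 of 5 had a summit within 10 kb (80.0%), against 9 of 72 other TRIM genes (12.5%) and 7.45% of all protein-coding genes. The gap between the counts by TSS and by span comes from TRIM5 and TRIM69, whose summits within 10 kb are assigned to TRIM34 and RNF4BP. Limiting the TSS distance to 1 kb left the 2 members and the 5 other TRIM genes, and 2.03% of all genes. The 5 genes were chosen with earlier results of this list known, so these shares are a description and were not tested.

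**Figure D3:**
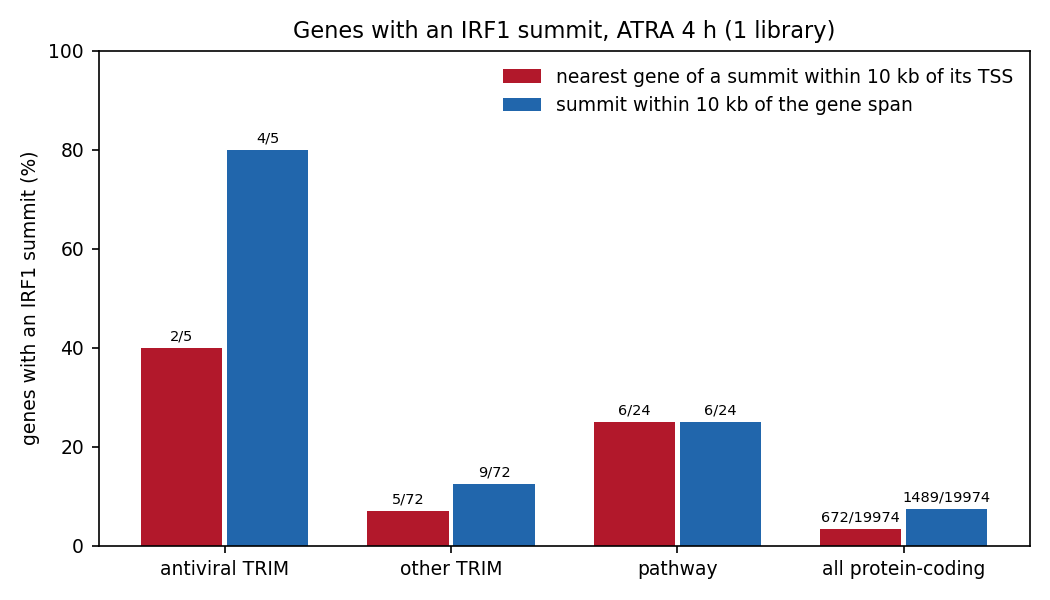
Percentage of genes with an IRF1 summit (vertical axis) in 4 gene lists (horizontal axis), by the nearest gene within 10 kb of the TSS (red) and by any summit within 10 kb of the gene span (blue), with counts above the bars. The antiviral TRIM genes stand at 40.0% and 80.0% and all protein-coding genes at 3.36% and 7.45%.

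The other TRIM genes with a summit at the start were TRIM14, TRIM26, TRIM34, TRIM44 and TRIM56, and the same letters were looked for in their promoters. The windows are at chr11:5624898-5624927, chr6:30213580-30213609, chr9:98119235-98119264, chr11:35662730-35662759 and chr7:101085471-101085500, with the GAAA pair in capitals except in TRIM56, where the shorter core is marked. They are printed to set beside the TRIM21 and TRIM25 lines.

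TRIM34: acagccccaaaaaTTTCACTTTCatttctc
TRIM26: cccgcctgaTTTCAGTTTCCATTTCgctgc
TRIM14: ccgcccacggccgaggTTTCGGTTTCcctt
TRIM44: tcctgacgggGAAAGGGAAAgtggaaccgg
TRIM56: aattagTTTCAGTTttgTTTCTTTTccagg

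TRIM26, a regulator of interferon induction, had 3 GAAA copies in a row like TRIM21, and its summit lay 9 bp from them. The summits of TRIM34, TRIM14 and TRIM44 lay 13, 16 and 5 bp from their pairs. TRIM14 is an adaptor of the mitochondrial antiviral protein MAVS, and TRIM44, which lacks a RING domain, stabilises MAVS. TRIM56, a ligase that acts in DNA and RNA sensing, resembled TRIM25 in having no pair, with the nearest core 6 bp from its summit. In all, the GAAA pair was found in 5 of the 7 TRIM promoters with a summit in them, TRIM21 and 4 of the other 5, against 38.7% of all 302 promoters with a summit. Of the 73 promoters of other TRIM genes without a summit, 3 held the pair (4.11%), those of TRIM2, TRIM16 and TRIM64C.

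The letters of the TRIM5 pair, TTTCACTTTC, were the same in TRIM34, and their reverse complement GAAAGTGAAA makes up the 3′ end of the TRIM21 run. This word was present in 71 of 35116 promoters (0.202%), of which 29 held a summit (40.8%). The share was 9.32% for promoters with any GAAA pair and 0.860% for all promoters. TRIM5, TRIM21 and TRIM34 were the 3 TRIM genes that had the word, and TRIM5 the one among them with no summit in the promoter. The word was picked from these same promoters, and those of TRIM21 and TRIM34 are among the 29, so its share is a description and was not tested.

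**Figure D4:**
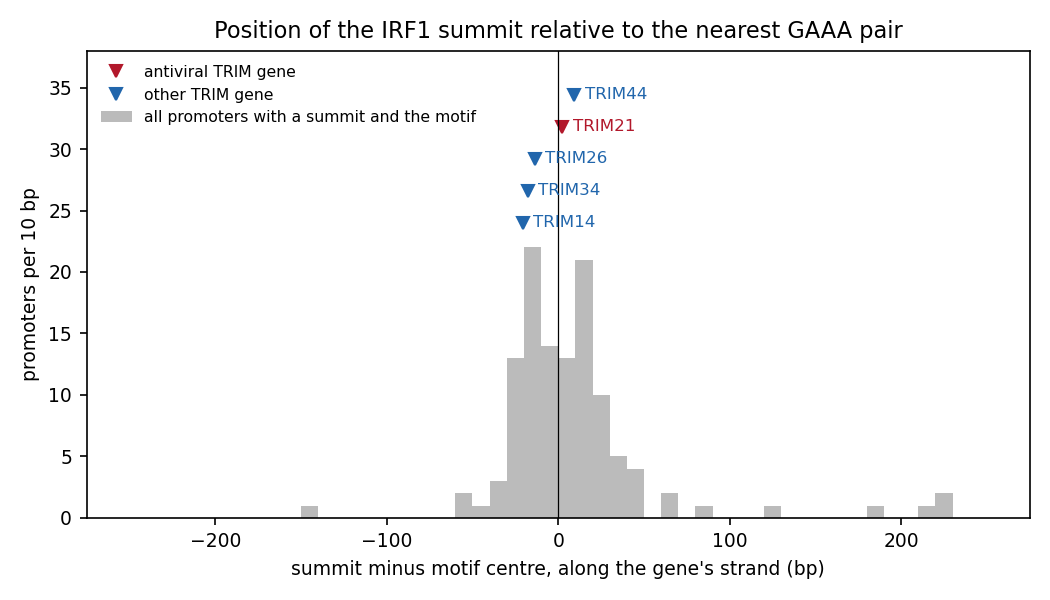
Number of promoters per 10 bp (vertical axis) against the summit position minus the centre of the nearest GAAA pair along the gene's strand in bp (horizontal axis), for the 117 promoters with both, with triangles for the antiviral (red) and other (blue) TRIM genes at heights that carry no value. The median distance was 15.5 bp, and TRIM21 (2.5 bp) is the closest of the TRIM genes, with TRIM14 (20.5 bp) the farthest. Overlapping promoters can share the same summit and pair, so the 117 are not all separate sites and some distances appear with both signs.

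Scores of the summits of other TRIM genes ran from 13.8 to 83.2, against 19.0 to 90.0 for the members' 5 summits, of which the TRIM34 summit belongs to both. By the authors' TSS, from which these distances are counted, TRIM56 had 83.2 at 32 bp and a second summit of 26.6 at 265 bp. TRIM14 had 3 summits, 41.0 at 89 bp, 47.1 at 10752 bp inside an intron and 35.5 at -10184 bp, within an intron of its neighbour CORO2A. TRIM44 (31.2), TRIM34 (30.7) and TRIM26 (29.5) had 1 each, so that 5 start-site summits, those of these 3 genes, TRIM14 and TRIM25, lay between 27.0 and 41.0. TRIM55, a muscle family member, was the nearest gene of a summit of 23.8 at -12773 bp. By span alone came TRIM24, with summits of 26.6 and 13.8 in an intron within a HERV3 element, TRIM72, with 1 of 15.8 assigned to PYCARD, and TRIM6-TRIM34, which shares the TRIM34 summit. The remaining 63 of the 72 had none within 10 kb of the span.

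A list of 24 genes, called partner genes here, was examined next. It held enzymes, cofactors and substrates of the member ligases, and also related sensors and downstream signalling proteins that are not direct partners. Of the 24, 6 (25%) had a summit assigned to them within 10 kb of the TSS, against 3.36% of all protein-coding genes. The list was made by hand with earlier results known, so this share was not tested. RIGI, the RNA sensor that TRIM25 ubiquitinates, had 173 at -32 bp, rank 41, and a second summit of 12.7. IFIH1, a related RNA sensor, had 59.8, and ZC3HAV1, the zinc finger antiviral protein for which TRIM25 is a cofactor, had 52.5 and 17.2. The conjugating enzyme gene UBE2D3 had 74.0 and 13.0, and IRF7, a factor induced downstream of these sensors, had 45.7. IKBKG, the regulatory subunit of the IκB kinase, had 12.1 in a LINE repeat. TRIM25 at 27.0 thus scored below its substrate RIGI and its partner ZC3HAV1 at their highest summits. The 18 others had no summit assigned to them within 10 kb of the TSS. They were the signalling genes MAVS, TBK1, IKBKE, IRF3, MAP3K7, TAB1 and TAB2, the ligase gene RNF135, the conjugating enzyme genes UBE2D1, UBE2D2, UBE2E1, UBE2N, UBE2V1, UBE2V2 and UBE2W, and PPIA, VCP and USP15.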

How the data were processed

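IRF1 ChIP-seq was done in 1 ATRA and 1 control library. The submitters' processing notes name Bowtie2 2.2.9, MACS 1.4.2 and hg38, and per the file headers the summits were annotated with HOMER's annotatePeaks.pl. The deposited score has no stated scale, and the deposited distance to the TSS is in bp. How peaks were called (background, threshold, duplicates) and the read depth are not stated in the sources used here, so no interval is printed. Nor is it stated how reads that fit several places, as in repeats, were handled.

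Genes were matched by Entrez identifier to RefSeq GRCh38.p14, which held the nearest gene of 1977 of 1986 summits. RefSeq spans gave the counts by span, over protein-coding genes outside chromosome Y. Motifs were searched on both strands of 35116 promoters of 27305 genes, a table that is not complete, and 4 of 5 members and 58 of 72 other TRIM genes matched. Overlapping promoters can hold the same summit, so counts of promoters are not counts of separate sites. Authors' and RefSeq start sites can differ, as in TRIM26 (summit at -115 and -203). In TRIM14 (89 and -42), TRIM56 (32 and -10) and TRIM44 (2 and -21) the start-site summit also changes side. Members and lists were chosen with earlier results of these data known, and no test was run. Named were all members, every TRIM gene with a summit assigned or within 10 kb of its span, every partner gene with one within 10 kb of its TSS, and, outside this rule and after their values were seen, the other partner genes, B2M, PML, OR52K1, TRIM2, TRIM16 and TRIM64C. The counting and motif steps were tested on simulated data. Python 3.11.15, pandas 2.3.3 and matplotlib 3.10.9 were used.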

Additional observations from a re-analysis of the deposited data

How the results depend on the processing

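No paired analysis was possible because there is only 1 library per group, and so none could be left out. Adding summits near the span assigned to a neighbour raised the members' summits to 5, against 3 assigned. The median of the members' best scores hardly changed, although it covers different genes. It was 28.9 over the 4 members with any summit within 10 kb of the span, against 28.4 over the 3 with an assigned summit. With 3 GAAA copies required, 1 member promoter held the motif, against 3. The other counts over the members, other TRIM genes and partner genes stayed within 1.5 times, while those over all protein-coding genes moved by more under some settings. Members by span were 3 with the 993 highest summits or spans extended by 1 or 5 kb, where TRIM69 dropped out, beside 4.21%, 5.48% and 6.36% of all genes, and 4 with 25 kb, beside 10.4%. By TSS they were 2 with the 993 highest summits (1.90% of all genes), within 1 kb (2.03%) and within 5 kb (2.82%), and 3 at any distance, beside 6.38%. Other TRIM genes by TSS were 5 or 6, the sixth being PML when older symbols were added and TRIM55 at any distance, and by span 7 to 13. Partner genes by TSS were 5 with the 993 highest summits, where IKBKG dropped out, and 6 otherwise. Merging summits under 200 bp apart changed none of the counts. The core AANNGAAA was added after seeing the data and was found in 4 member promoters, including by construction the 3 with the GAAA pair.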

Other observations

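The distal summit assigned to TRIM69 was 1 of 8 summits in LTR13 repeats in the list. A second of the 8, assigned to the olfactory receptor gene OR52K1 with a score of 17.9, was the summit closest to TRIM21 after its own, at 99.5 kb. Both were seen while the neighbourhoods were listed, and no test was run.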
